A study of Mus musculus with 3 samples.

Results

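The 10 genes described here, Axin2, Notum, Nkd1, Rnf43, Znrf3, Sp5, Wif1, Cd44, Lef1 and Tcf7, are known Wnt-induced genes, and were taken by name from the 23271 gene symbols of a single-cell RNA table of mouse small-intestinal organoids. All 10 were in the table. The question was which of them were higher in both media that hold CHIR99021, and which in only 1 of them. Nkd1, Rnf43, Sp5 and Lef1 were at least 2-fold above ENR in both media. Axin2 passed that fold in ENR+CV alone. Notum and Wif1 had 328 and 92 transcripts in ENR+CD against 7 and 1 in ENR+CV. Znrf3, Cd44 and Tcf7 were called in neither medium.

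Wnt ligands bind Frizzled receptors and LRP co-receptors and halt the destruction complex, in which GSK3 marks beta-catenin for breakdown. Beta-catenin then acts with TCF and LEF factors on target genes, and several of those targets are inhibitors that dampen the same pathway. In the small intestine, Wnt signalling maintains the stem cells of the crypt and supports Paneth cells (PCs), the antimicrobial secretory cells beside them.

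The organoids of the study came from the proximal small intestine of C57BL/6 mice, 3 to 6 months old, with no engineered allele named in the sources. Mice of both sexes were used over all experiments. Each library was 1 Seq-Well array, a plate of nanowells that pairs single cells with barcoded beads, loaded from 6 wells and 1 donor. The sex of that donor was not stated. All 3 media held the growth factors EGF, Noggin and R-spondin 1 (ENR), so the control also carries R-spondin 1, a Wnt agonist. Stem cell-enriched organoids were expanded in ENR+CV, which adds 3 µM CHIR99021 (inhibits GSK3) and 1 mM valproic acid (inhibits histone deacetylases), and cells were then passaged for 6 days into ENR, or into ENR+CD, which holds 3 µM CHIR99021 and 10 µM DAPT (inhibits gamma-secretase, and with it Notch). The ENR+CV library is the stem cell-enriched population in its own medium. Every contrast with ENR thus changes 2 compounds at once, and the part of CHIR99021 cannot be told apart from that of the second compound. With 1 library per condition there is no replicate, so no test between media was possible, and all intervals below cover counting error only.

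The libraries kept 2545 ENR, 2383 ENR+CD and 985 ENR+CV cells of at least 1000 and under 8000 unique molecular identifiers (UMIs, 1 for each captured transcript) and at least 400 genes. Their UMI totals were 5095089, 4538388 and 2942252, with medians of 1553, 1543 and 2499 UMIs per cell. The median mitochondrial share of a cell was 14.7%, 7.18% and 2.41% in the same order. The 8 epithelial markers were all detected, at 4764, 4799 and 5116 counts per 1000000 UMIs (CPM). The Paneth marker list stood at 42941, 191987 and 6111 CPM. The single-library table deposited under the ENR+CD label holds, cell for cell, the 1092 cells that the merged table names after the ENR+CV source, and the one under the ENR+CV label holds the 2506 named after the ENR+CD source. Conditions below follow the merged table, in which the library named ENR+CD is the one with the high Paneth level and that named ENR+CV has the lowest. Exchanging the labels of ENR+CD and ENR+CV would exchange every value of those media given below, while the count of genes higher in both would stay the same. Pairs of libraries shared 3 to 7 cell barcodes.

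Promoter windows are shown for Sp5 and Lef1, as the members with a match, and for Axin2 as a feedback gene without one. They come from RefSeq on GRCm38.p6 and run from 250 bases before to 50 after an annotated start. They were searched on both strands for CTTTGA (read as TCAAAG from the other strand), a form of the core that TCF and LEF factors bind. Matches to these letters are in capitals, and other forms of the core were not searched.
Sp5, chr2:70474673-70474972, plus strand: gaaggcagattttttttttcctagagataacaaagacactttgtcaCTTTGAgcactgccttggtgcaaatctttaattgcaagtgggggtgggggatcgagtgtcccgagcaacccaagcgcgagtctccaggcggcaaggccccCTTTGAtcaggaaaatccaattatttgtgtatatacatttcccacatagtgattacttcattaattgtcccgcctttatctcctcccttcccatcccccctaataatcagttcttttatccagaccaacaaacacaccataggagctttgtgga
Lef1, a start inside the gene, chr3:131156044-131156343, plus strand: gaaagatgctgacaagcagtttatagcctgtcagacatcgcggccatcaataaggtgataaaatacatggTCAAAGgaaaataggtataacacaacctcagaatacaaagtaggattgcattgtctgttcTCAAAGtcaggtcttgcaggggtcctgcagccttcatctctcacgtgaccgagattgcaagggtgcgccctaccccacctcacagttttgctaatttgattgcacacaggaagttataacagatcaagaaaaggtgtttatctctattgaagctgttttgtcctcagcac
Axin2, chr11:108920099-108920398, plus strand: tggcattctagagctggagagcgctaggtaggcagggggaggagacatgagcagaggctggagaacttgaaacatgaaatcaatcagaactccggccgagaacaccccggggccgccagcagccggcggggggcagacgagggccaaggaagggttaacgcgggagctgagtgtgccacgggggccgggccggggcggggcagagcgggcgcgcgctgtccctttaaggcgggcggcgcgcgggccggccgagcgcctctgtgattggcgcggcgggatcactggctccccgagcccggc
In the Sp5 window the matches begin at -204 and -104 from the start, and in the Lef1 window at -180 and -120, there on the opposite strand. Of 32851 windows of this length in the genome, 5257 (16.0%) held at least 1 match and 568 (1.73%) at least 2. Windows were listed for 8 of the 10 genes, 13 windows in all, and only these 2 of the 13 held a match. That is 15.4% of the member windows, near the 16.0% of all windows. Nkd1 and Rnf43, which were also higher in both media, had no match in their windows. No window was listed for Notum or Znrf3. The other 3 Lef1 windows, each at an earlier start, had none. No binding was measured here, so a match is a description of the letters.

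The levels of the 10 genes added up to 295 CPM for ENR, 737 CPM for ENR+CD and 685 CPM for ENR+CV. The 2 CHIR99021 media thus had similar sums. Axin2 and Rnf43 were the largest parts of both, while the parts of Notum and Nkd1 differed between the media. A gene was called where its CPM differed at least 2-fold, the exact Poisson 95% intervals were separate and the pair held at least 20 UMIs. In ENR+CD, 6 of the 10 genes were called above ENR and 0 below it, while 4 were called neither way, where 10.8% of the 12197 genes with enough UMIs were called higher and 9.35% lower. In ENR+CV, 5 were called above ENR and 0 below it, 3 were called neither way and 2 had under 20 UMIs in the pair, where 15.9% of 11962 genes were called higher and 5.80% lower. The median log2 ratio of the 10 was 1.76 in ENR+CD and 1.33 in ENR+CV, with fewer than 3 UMIs set to 3, against -0.01 and 0.35 over all genes tested. The median gene of ENR+CV thus itself lay above ENR by 0.35 on the log2 scale, and with ratios centred on it 4 members were called in place of 5, as Axin2 dropped out. Both comparisons use the same ENR library.

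**Figure D1:**
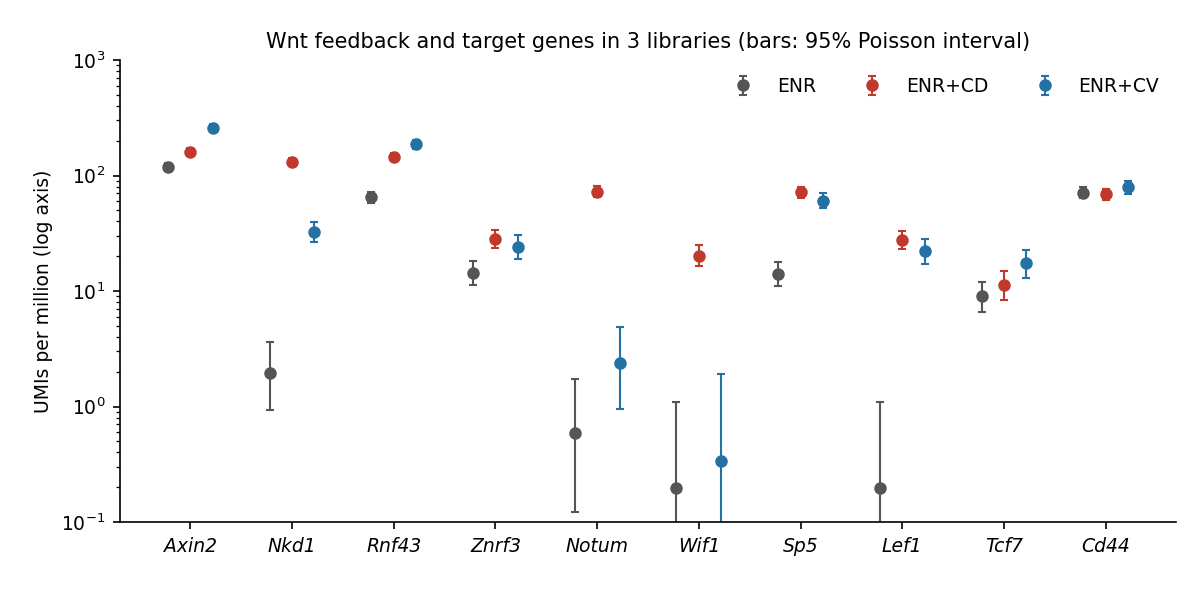
Level of each gene in CPM on a log axis, for the ENR, ENR+CD and ENR+CV libraries. Points are sums over all kept cells and bars are exact Poisson 95% intervals, some of which run below the axis at the lowest levels. Notum and Wif1 stand high in ENR+CD alone, and Cd44 is level across the 3 libraries.

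The intracellular feedback genes differed from ENR by very different amounts. Axin2, a scaffold of the destruction complex (chromosome 11, 108920349 to 108950783 on GRCm38, plus strand), had 605 UMIs in ENR (119 CPM, 109.5 to 129), 727 in ENR+CD (160 CPM, 149 to 172) and 763 in ENR+CV (259 CPM, 241 to 278). It was detected in all media, ENR included, and its intervals were separate at each step. The ratio to ENR was 1.349 (1.21 to 1.51) in ENR+CD, under the fold for a call, and 2.18 (1.96 to 2.43) in ENR+CV, which was called higher. That call rests near the threshold, since the ratio was 1.71 when centred on the median gene, 1.81 over UMIs outside Paneth and mitochondrial genes, and 1.97 with all cells of the merged table. Axin2 in ENR+CD was 0.618 times (0.557 to 0.685) its level in ENR+CV, which did not reach 2-fold.

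Nkd1, an inhibitor that binds Dishevelled (chromosome 8, 88521354 to 88594884, plus strand), was almost absent from ENR, with 10 UMIs or 1.96 CPM (0.941 to 3.61). It reached 131 CPM (595 UMIs, 121 to 142) in ENR+CD and 32.6 CPM (96 UMIs, 26.4 to 39.8) in ENR+CV. Nkd1 was called higher in both media, but not equally. The ratio to ENR was 66.8 (36.1 to 140) in ENR+CD and 16.6 (8.66 to 35.8) in ENR+CV, and ENR+CD was 4.02 times (3.23 to 5.04) above ENR+CV. Among cells with under 10% mitochondrial UMIs the first ratio was 33.4.

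Rnf43 and Znrf3 encode membrane E3 ubiquitin ligases that remove Frizzled receptors from the surface and that R-spondins hold in check. Rnf43 (chromosome 11, 87662722 to 87735539, plus strand) had 330 UMIs in ENR (64.8 CPM, 58.0 to 72.2), 660 in ENR+CD (145 CPM, 134.5 to 157) and 549 in ENR+CV (187 CPM, 171 to 203). It was called higher in both media, by 2.25-fold (1.96 to 2.57) and 2.88-fold (2.51 to 3.31). The sense-intronic gene 1110028F11Rik lies inside it and had 26, 187 and 194 UMIs in the same order, so reads of the 2 genes may be split between them and the Rnf43 value is uncertain to that extent. Znrf3 (chromosome 11, 5276324 to 5444847, minus strand) had 73 UMIs in ENR (14.3 CPM, 11.2 to 18.0), 128 in ENR+CD (28.2 CPM, 23.5 to 33.5) and 71 in ENR+CV (24.1 CPM, 18.9 to 30.4). Its ratios of 1.97 (1.47 to 2.66) and 1.68 (1.198 to 2.37) had intervals above 1 but stayed under 2-fold, and at a 1.5-fold threshold Znrf3 was called in both.

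The secreted inhibitors were those with the greatest contrast between the CHIR99021 media. Notum, a deacylase that strips the lipid from Wnt proteins (chromosome 11, 120653788 to 120661175, minus strand), had 3 UMIs in ENR (0.589 CPM, 0.121 to 1.72), 328 in ENR+CD (72.3 CPM, 64.7 to 80.5) and 7 in ENR+CV (2.38 CPM, 0.957 to 4.90). The ENR+CD library was thus the only one with more than a few Notum transcripts. The ratio of ENR+CD to ENR was 123 (41.6 to 598) and to ENR+CV 30.4 (14.6 to 76.2). The ENR and ENR+CV pair held under 20 UMIs, with a ratio of 4.04 (0.922 to 24.2), so a smaller difference in ENR+CV was not detectable at this depth.

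Wif1, which encodes a secreted protein that binds Wnt ligands (chromosome 10, 121033960 to 121100650, plus strand), had 92 UMIs in ENR+CD and 1 each in ENR and ENR+CV, or 20.3 CPM (16.3 to 24.9), 0.196 CPM and 0.340 CPM. The ratio of ENR+CD to ENR was 103 with an interval of 18.1 to 4123, and to ENR+CV 59.6 with an interval of 10.4 to 2381. Between the CHIR99021 media, the 3 members Notum, Wif1 and Nkd1 were called above ENR+CV in ENR+CD and 0 below it, where 7.10% of 12099 genes were higher and 18.9% lower. The other 7 were called neither way, with ratios from 0.618 for Axin2 to 1.25 for Lef1, and Axin2, Rnf43 and Tcf7 had intervals under 1. For Rnf43 the ratio was 1.03 outside Paneth and mitochondrial genes and close to 1 when centred, and for Tcf7 it was 1.34 in cells under 2000 UMIs and 1.56 in thinned cells, so neither direction held.

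The transcription factors fell into different groups. Sp5, a zinc-finger factor that represses Wnt targets (chromosome 2, 70474923 to 70477729, plus strand), had 72 UMIs in ENR (14.1 CPM, 11.1 to 17.8), 326 in ENR+CD (71.8 CPM, 64.2 to 80.1) and 178 in ENR+CV (60.5 CPM, 51.9 to 70.1). The ratios to ENR were 5.08 (3.93 to 6.66) and 4.28 (3.24 to 5.71), and ENR+CD over ENR+CV was 1.19 (0.986 to 1.43). Lef1, a partner of beta-catenin (chromosome 3, 131110471 to 131224356, plus strand), had 1 UMI in ENR (0.196 CPM), 125 in ENR+CD (27.5 CPM, 22.9 to 32.8) and 65 in ENR+CV (22.1 CPM, 17.1 to 28.2). Its ratios of 140 (24.7 to 5587) and 113 (19.5 to 4513) are loosely bounded because of that single ENR transcript. Sp5 and Lef1 were higher in both media, and the intervals of their levels overlapped between ENR+CD and ENR+CV.

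Tcf7, the other TCF/LEF factor among the members (chromosome 11, 52252371 to 52283014, minus strand), had 46, 51 and 51 UMIs in ENR, ENR+CD and ENR+CV, or 9.03, 11.2 and 17.3 CPM. The ratio to ENR was 1.25 (0.819 to 1.90) in ENR+CD and 1.92 (1.26 to 2.93) in ENR+CV, and neither was called. Lef1 and Tcf7 are also known from T cells. Of 16 immune genes in the table, 7, 7 and 11 had UMIs in ENR, ENR+CD and ENR+CV, at summed levels of 45.0, 32.8 and 46.6 CPM. Cd3e, Cd3d and Cd8a were at 0 in all 3 libraries, while Cd8b1, Trbc1 and Trbc2 had no row in the table. Other T-cell genes did have UMIs, namely Lck in all 3 libraries, Trac in ENR and ENR+CD, and Cd3g in ENR and ENR+CV. Cd4 and Il7r had UMIs in ENR+CV alone. Stromal and endothelial markers summed to 55.5, 80.0 and 259 CPM, with Cdh5 at 0 in all libraries and no row for Lum. The stromal list was thus highest in ENR+CV, and its part in the ENR+CV values was not tested.

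Cd44, a surface glycoprotein and hyaluronan receptor of crypt cells (chromosome 2, 102811141 to 102901665, minus strand), had 362 UMIs in ENR (71.1 CPM, 63.9 to 78.8), 312 in ENR+CD (68.8 CPM, 61.3 to 76.8) and 233 in ENR+CV (79.2 CPM, 69.4 to 90.0). All 3 intervals overlapped. The ratios to ENR were 0.968 (0.829 to 1.13) and 1.12 (0.941 to 1.32), so a 2-fold change lay outside both intervals. The small nuclear RNA gene Gm23731, on the other strand within Cd44, had 23, 1 and 156 UMIs, and strand was not stated for the counting.

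Of the 8 members tested against ENR in both media, Nkd1, Rnf43, Sp5 and Lef1 (4) were higher in both, where 4.07% of 11626 genes tested in both were. Axin2 was the 1 member higher in ENR+CV and not in ENR+CD, where 10% of genes were, and 0 of the 8 were higher in ENR+CD alone, where 4.90% were. Notum and Wif1 were called in ENR+CD and had too few UMIs in the ENR+CV pair for a call. Nkd1, Sp5 and Lef1 also passed a 3-fold threshold in both media, and Rnf43 did not. Within this group, Nkd1 was called higher in ENR+CD than in ENR+CV and the other 3 were not.

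**Figure D2:**
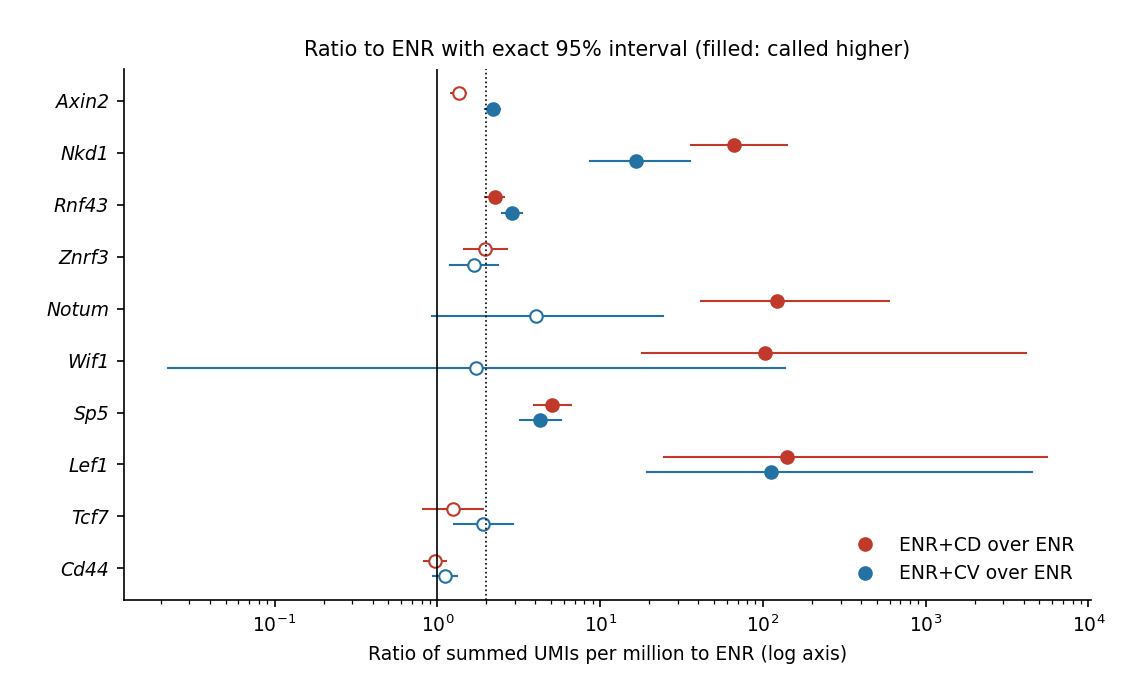
Ratio of the summed level in ENR+CD and in ENR+CV to that in ENR for each gene, on a log axis, with exact 95% intervals. Filled points were called higher, the solid line marks equal levels and the dotted line 2-fold. Nkd1, Rnf43, Sp5 and Lef1 are filled in both media, while Axin2 is filled in ENR+CV and Notum and Wif1 in ENR+CD.

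Most cells that carried a member had a single transcript of it, so shares of cells were compared after every cell was thinned to 1000 UMIs, which kept all cells. Nkd1 was found in 0.118% of ENR cells (Clopper-Pearson 95% interval 0.0243% to 0.344%), 11.6% of ENR+CD cells (10.3% to 12.9%) and 2.94% of ENR+CV cells (1.98% to 4.20%), against 0.393%, 19.0% and 7.92% without thinning. Notum was found in 0.0393%, 5.58% and 0%, and in 0.118%, 9.02% and 0.711% without thinning. For 0 of 985 ENR+CV cells the interval reaches 0.374% of cells with a UMI at the thinned depth. Wif1 was found in 0%, 1.85% and 0%, and Lef1 in 0.0393%, 2.64% and 2.54%. Of these genes Nkd1 had the highest share in ENR+CD.

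Axin2 was found in 10.2% of ENR cells (9.07% to 11.5%), 13.8% of ENR+CD cells (12.4% to 15.2%) and 21.1% of ENR+CV cells (18.6% to 23.8%). Rnf43 was found in 5.78%, 13.1% and 17.2%, and Sp5 in 1.34%, 5.92% and 6.09%. These 3 genes, Nkd1 and Lef1 (5 of 10) had shares above ENR in both media with separate intervals, and without thinning Znrf3 was a further one. The same count over all genes was not made, so this number has no background to be read against. Cd44 was found in 6.37%, 6.38% and 7.41%, Znrf3 in 1.34%, 2.43% and 3.05%, and Tcf7 in 0.904%, 1.39% and 0.914%.

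As a background, 427 enterocyte-like cells of ENR (median 1573 UMIs, near the 1553 of ENR as a whole) were taken as cells that should carry little Wnt response. Axin2 was found in 6.32% of them (4.21% to 9.07%), Rnf43 in 5.62% (3.63% to 8.25%), Cd44 in 4.92% (3.07% to 7.42%) and Sp5 in 1.17% (0.381% to 2.71%), thinned alike. Notum, Nkd1, Wif1 and Lef1 were found in 0 of the 427 cells, where the interval reaches 0.860% with a UMI at the thinned depth, and 0.234% held Nkd1 without thinning. The ENR shares of all 10 genes overlapped those of the enterocyte-like cells, Axin2 only just, and those cells are themselves part of ENR, so an ENR share alone does not separate expression from background. For Axin2 they did come apart by level, with 79.6 CPM (61.3 to 102) in the enterocyte-like cells against 119 CPM in ENR as a whole, and by share in ENR cluster 4 of the clusters described below, at 16.55% (12.4% to 21.4%). The ENR+CD shares of Axin2, Notum, Nkd1, Rnf43, Sp5, Wif1 and Lef1 lay above the enterocyte-like interval, and those of Znrf3, Cd44 and Tcf7 did not. How many of all genes would do so was not counted either.

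Cells with transcripts of 2 or more members, thinned alike, made up 2.28% of ENR (1.74% to 2.94%), 14.0% of ENR+CD (12.6% to 15.4%) and 13.3% of ENR+CV (11.2% to 15.6%). The 2 CHIR99021 media thus did not differ in this share beyond counting error. Among 135 comparisons of 1 member between cells with and without another, within a library, 0 had separate intervals. Whether members lie in the same cells was therefore not detectable at this depth.

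Notum was the member least evenly spread over ENR+CD cells. Its 328 UMIs lay in 215 cells, of which 174 had 1 UMI, while 8 cells with 5 or more UMIs held 74 UMIs, or 22.6% of the total, and 1 cell held 21. Nkd1, with 595 UMIs in 452 cells, had 2 cells with 5 or more, which held 1.85% of its UMIs, and at most 6 in a cell. The variance of the thinned counts over their mean was 1.497 for Notum in ENR+CD, 1.33 for Wif1, 1.21 for Nkd1 and 1.09 for Lef1, where a value of 1 is pure counting noise. In ENR+CV, Axin2 had 15 cells with 5 or more UMIs, which held 11.3% of its UMIs.

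The cells of the 3 libraries were clustered together without the members and the other Wnt genes, which gave 15 clusters, each mostly of 1 library (6 of ENR, 5 of ENR+CD and 4 of ENR+CV). A cluster was named only where 3 or more of its 10 leading genes were markers of 1 class. Cluster levels below are those of the cells of its main library, and are a description with counting intervals and no test. Since each cluster is mostly 1 library, a cell state and a library cannot be told apart. Notum, Wif1 and Lef1 were at 0 to 1.74 CPM in every ENR cluster, and Nkd1 at 0 to 5.53 CPM. These 4 genes thus had few or no UMIs in the enterocyte-like and enteroendocrine (EEC)-like clusters of ENR and in its unnamed ones. The smallest of these bound the level loosely. In the EEC-like ENR cluster 5 (95 cells) the intervals reached 20.4 CPM for Notum, Wif1 and Lef1 and 30.8 CPM for Nkd1. In ENR cluster 6 (72 cells) they reached 25.4 CPM. For 8 of the 10 genes the highest cluster was one of ENR+CD, and for Axin2 (335 CPM) and Tcf7 (21.6 CPM) one of ENR+CV. The highest ENR+CD and ENR+CV clusters lay close for Rnf43 (223 and 220 CPM), Lef1 (49.97 and 45.6 CPM) and Znrf3 (42.8 and 35.5 CPM), and for Cd44 ENR+CD cluster 3 (101 CPM) lay close to ENR cluster 6 (96.5 CPM), all within counting error. That number was 5 with fewer, larger clusters.

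**Figure D3:**
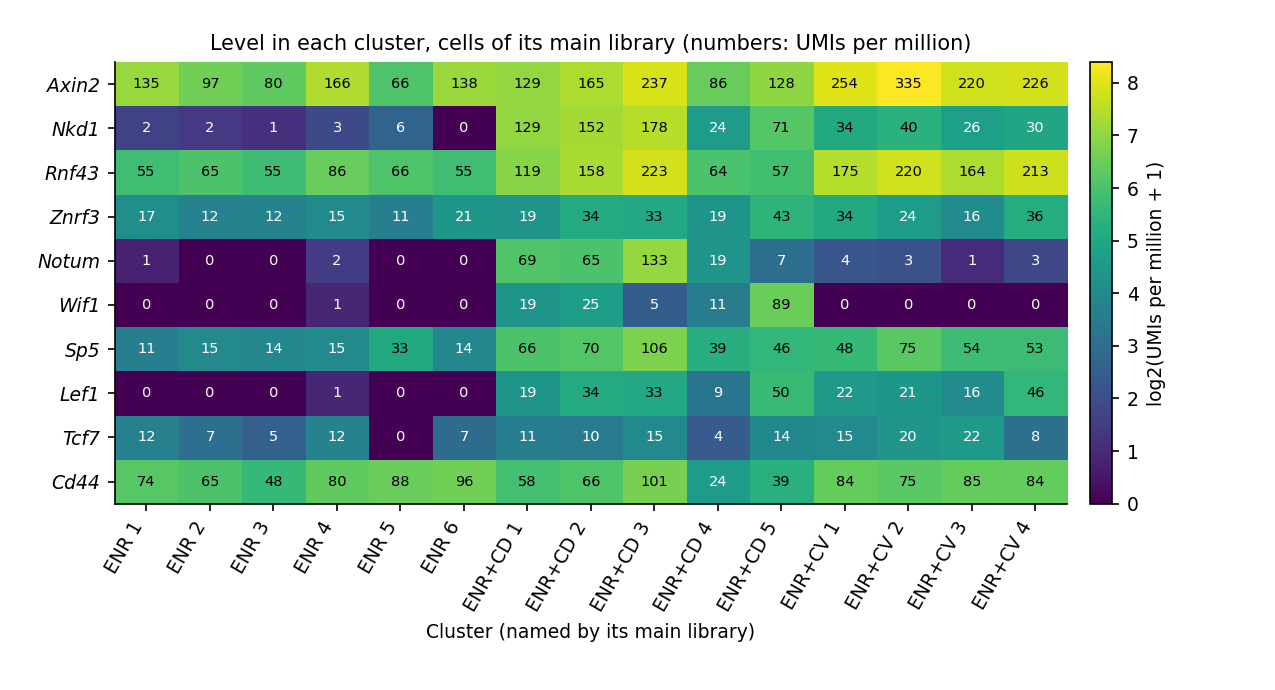
Level of each gene in each of the 15 clusters, counted in the cells of the library that gives the cluster its name. Colour is log2(CPM + 1) and the printed numbers are CPM. Nkd1 is above 20 CPM in all ENR+CD and ENR+CV clusters, Notum is highest in ENR+CD cluster 3 and Wif1 in ENR+CD cluster 5.

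Among the ENR+CD clusters, Notum was highest in cluster 3, an unnamed cluster of 574 cells led by Sbspon, Rdh10, Clu and Ifitm1. Its level there was 133 CPM, or 2.51 times (2.01 to 3.14) that of the other ENR+CD cells, and 2.16 times without the cell of 21 UMIs. It made up 24.1% of ENR+CD by cells and 44.5% by Notum UMIs. Notum stood at 68.5 CPM in cluster 1 (808 Paneth-like cells), 64.6 CPM in cluster 2 (654 unnamed cells led by Sct and Clu), 19.3 CPM in cluster 4 (203 Paneth-like cells) and 7.14 CPM in cluster 5 (92 EEC-like cells). Axin2, Rnf43, Sp5 and Cd44 were also higher in cluster 3 than in the other ENR+CD cells, by 1.73 to 1.85 times, and Nkd1 by 1.54 times (1.29 to 1.83). In cluster 3 Paneth genes made up 6.26% of the UMIs of a cell on average, against 26.9% in cluster 1 and 48.2% in cluster 4. The cluster ratios are relative to all UMIs, so they also depend on how much of the total Paneth transcripts fill. The share of all genes higher in cluster 3 was not counted, so these ratios have no background to be read against.

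Wif1 had another distribution. It was highest in the EEC-like cluster 5 of ENR+CD, at 89.2 CPM (25 UMIs in 20 of 92 cells), or 5.67 times (3.43 to 9.10) the other ENR+CD cells. It made up 3.86% of ENR+CD by cells and 27.2% by Wif1 UMIs. In cluster 3, where Notum was highest, Wif1 stood at 4.55 CPM (5 UMIs), or 0.180 times (0.0570 to 0.436) the other cells. The 2 secreted inhibitors thus had opposite extremes over the same clusters, and the single-cell counts of both were low.

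EEC-like cells were named in both ENR and ENR+CD and were compared as 1 class by name. The leading genes of the clusters differed, with Afp, Ucn3 and Tph1 first in ENR cluster 5 and Runx1t1, Neurod1 and Gcg first in ENR+CD cluster 5. Cell state and medium therefore cannot be told apart in this comparison. The ENR cells of this class were 95 in ENR cluster 5 and 29 in ENR+CD cluster 5, while the 92 of ENR+CD all lay in ENR+CD cluster 5, so different clusters hold most of it in the 2 media. Wif1 had 25 UMIs in the ENR+CD cells and 0 in the 124 ENR cells, and was at least 5.81-fold higher by the exact 95% limit, or 7.70-fold against a floor of 3 UMIs over the group. The 16 ENR+CV cells of ENR+CD cluster 5 held 1 Wif1 UMI, or 25.2 CPM (0.638 to 140.5). That interval overlaps the one of the ENR+CD cells there (57.7 to 132). Lef1 had 14 UMIs against 0 and was at least 3.07-fold higher by the same limit, or 4.31-fold against the floor. Nkd1 had 20 UMIs against 1, a ratio of 18.5 (2.96 to 766), and Axin2 had 36 against 14, a ratio of 2.38 (1.25 to 4.77). Rnf43 did not differ beyond counting error, at 57.1 and 54.1 CPM and a ratio of 1.06 (0.483 to 2.34). Cd44 was lower in the ENR+CD cells, at 39.3 against 112 CPM, a ratio of 0.351 (0.158 to 0.723).

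**Figure D4:**
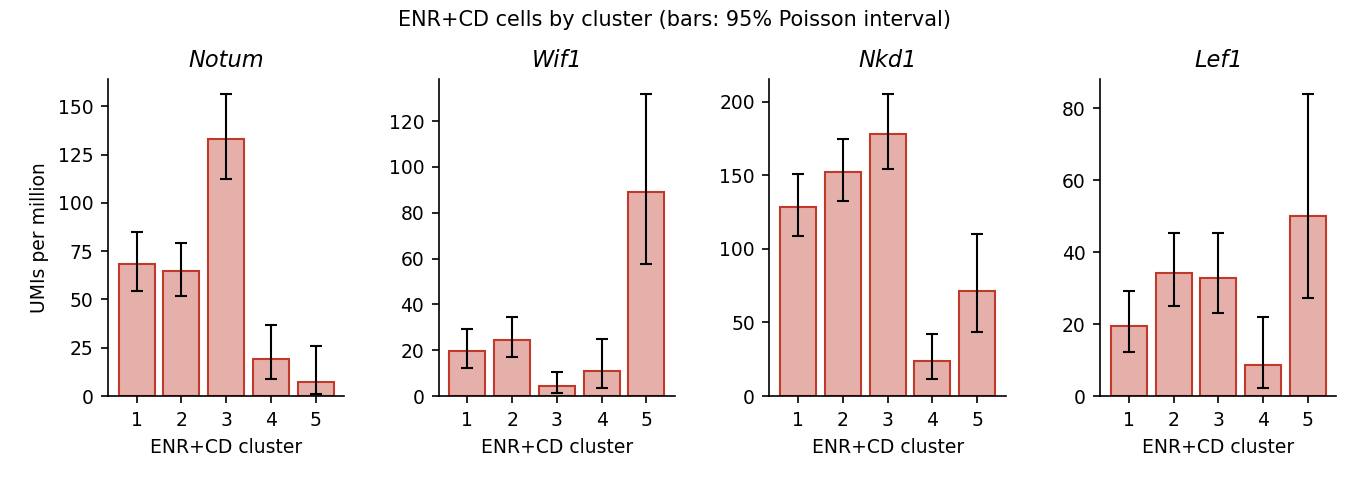
Levels of Notum, Wif1, Nkd1 and Lef1 in CPM in the 5 clusters of ENR+CD cells, with exact Poisson 95% intervals. Clusters 1 and 4 are Paneth-like, cluster 5 is EEC-like and clusters 2 and 3 are unnamed. The Notum bar is tallest in cluster 3 and the Wif1 bar in cluster 5, while Nkd1 is lowest in cluster 4.

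Relative to all UMIs, most members were lower in the Paneth-like cluster 4 than in the other ENR+CD cells. Paneth genes made up 48.2% of the UMIs of a cell there on average, which by itself lowers other genes by this measure. The share of all genes lower in cluster 4 was not counted. Nkd1 stood there at 23.6 CPM, or 0.165 times (0.0817 to 0.297) the other ENR+CD cells, and Rnf43 at 64.4 CPM, or 0.416 times (0.278 to 0.600). Cells were therefore also ranked by the share of their UMIs on Paneth antimicrobial genes and parted into 4 groups of 595 or 596 cells. Relative to all UMIs, 5 members (Axin2, Notum, Rnf43, Znrf3 and Lef1) were called higher in the group of lowest share than in that of highest share, where 24.6% of 9420 genes were. Relative to UMIs outside Paneth genes, 0 of the 9 with enough UMIs were called, where 1.67% of genes were higher. The first count thus moves with the denominator, which Paneth transcripts fill to a different extent in each group. Notum went from 109 to 34.3 CPM by the first measure, a ratio of 3.18 (2.22 to 4.62), and from 112 to 57.4 by the second, a ratio of 1.95 (1.37 to 2.84). Wif1 went from 25.3 to 33.0 by the second, a ratio of 0.766 (0.436 to 1.37).

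**Figure D5:**
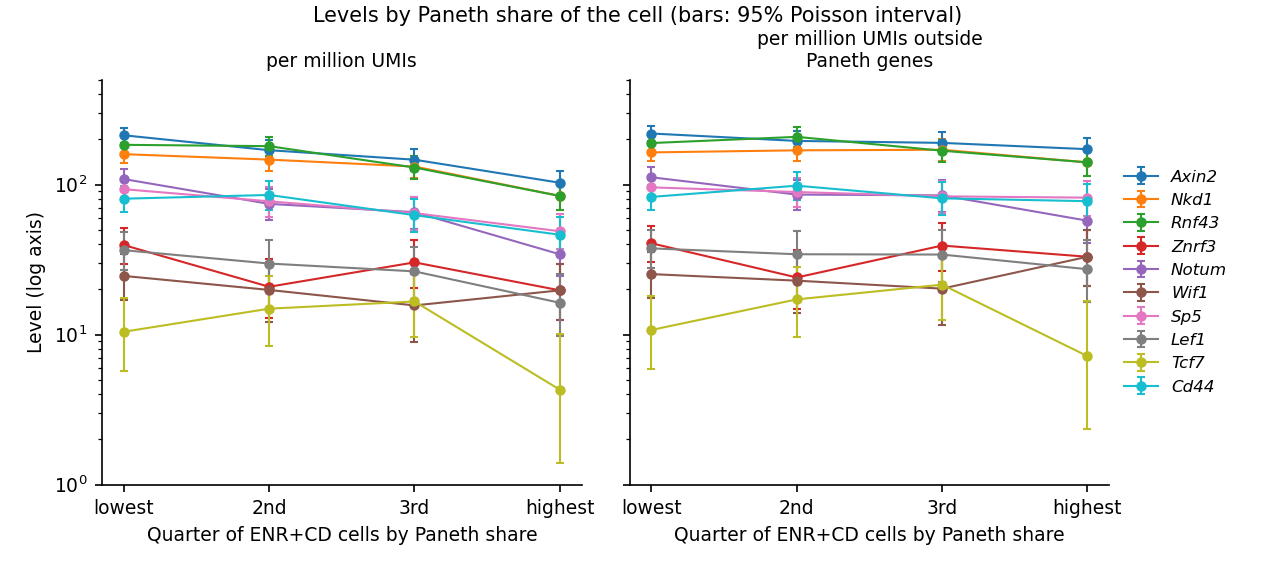
Levels of the 10 genes in 4 groups of ENR+CD cells from the lowest to the highest share of UMIs on Paneth genes, per 1000000 of all UMIs (left) and of UMIs outside Paneth genes (right), on a log axis with exact Poisson 95% intervals. Most lines fall to the right in the left panel and are flatter in the right panel, where Notum keeps a ratio of 1.95.

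In ENR+CV the members varied less between clusters. Axin2 ranged from 220 to 335 CPM over its 4 clusters, Rnf43 from 164 to 220 CPM, Nkd1 from 25.6 to 40.4 CPM and Lef1 from 15.7 to 45.6 CPM. The last value was that of cluster 4, which was led by genes with Gm symbols, the small nuclear RNA Gm23731 among them, and had a median mitochondrial share of 11.2%. Between 711 ENR+CV cells with under 5% mitochondrial UMIs and 274 with more, 0 members were called and 2 had under 20 UMIs. The share of all genes called in this split was not counted, so the 0 has no background. Tcf7, with 48 and 3 UMIs, had a ratio of 3.28 (1.06 to 16.4) and was still not called.

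Levels across the 15 clusters were set against those of 7586 genes of at least 200 UMIs, by the Pearson correlation of log2(CPM + 1). This is a description over clusters that share libraries and depth. The gene most like Notum was Wnt6, which encodes a Wnt ligand (r = 0.98), followed by Cdh13 (r = 0.949) and Sbspon (r = 0.947). Wnt6 had 296 UMIs in ENR+CD, 8 in ENR+CV and 0 in ENR, the order seen for Notum. Nkd1 was most like Prox1, a transcription factor and Wnt target (r = 0.960), Sp5 (r = 0.941) and Ifitm1 (r = 0.935), and Sp5 most like Id3 (r = 0.969). Sp5 was next like Nkd1 (r = 0.941) and Lamp2 (r = 0.924). Axin2 was most like Sesn3 (r = 0.933), Tubg1 (r = 0.919) and Pfdn2 (r = 0.918). Rnf43 was most like Rnd3 (r = 0.902), Ifitm2 (r = 0.892) and Pls3 (r = 0.891). Znrf3 was most like Arhgef2 (r = 0.885), Sdf4 (r = 0.876) and Rassf3 (r = 0.867), and Cd44 most like Dtx4 (r = 0.931), Fgfr1op (r = 0.926) and Yap1 (r = 0.922).

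Of 33 other Wnt target genes in the table, 30 had enough UMIs against ENR, of which 10 were higher and 4 lower in ENR+CD (10.8% and 9.35% of all genes tested) and 10 higher and 1 lower in ENR+CV (15.9% and 5.80%). Tnfrsf19, Prox1, Bambi, Fosl1, Sox4, Id2, Tspan5 and Agr3 (8) were higher in both, as were 4.07% of all genes. Prox1 stood at 8.24, 188 and 112 CPM in ENR, ENR+CD and ENR+CV, and Tnfrsf19, a receptor of the TNF family, at 6.48, 68.1 and 78.5 CPM. Bambi, a pseudoreceptor that dampens TGF-beta signalling, stood at 7.85, 50.9 and 21.8 CPM, and Sox4, a transcription factor, at 176, 408 and 454 CPM. The size of the difference thus varied widely among known targets too. The median log2 ratio of this list was 0.09 in ENR+CD and 0.72 in ENR+CV, against the -0.01 and 0.35 of all genes.

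Other targets were higher in 1 medium or in neither. Mmp7, a matrix metalloproteinase of PCs, was above ENR in ENR+CD and below it in ENR+CV, at 363, 3875 and 121 CPM. Dkk3, of the Dickkopf family, had 0, 113 and 5 UMIs and was called higher in ENR+CD. Apcdd1 had 3, 13 and 17 UMIs and was called higher in ENR+CV, at a ratio of 9.81 (2.84 to 52.3). Its pair of ENR+CD and ENR held under 20 UMIs. Rgmb was higher in ENR+CV alone, at 60.1, 65.4 and 125 CPM. The 4 target genes with most UMIs were Mmp7, Jun, Slc12a2 and Sox4. Jun, an AP-1 factor, and Slc12a2, which carries sodium, potassium and chloride, were called in neither medium, at ratios of 1.46 and 1.96 for Jun and 0.714 and 1.09 for Slc12a2. Ascl2, Myc, Birc5 and Cdx1 were the 4 called lower in ENR+CD, at ratios of 0.3995, 0.408, 0.460 and 0.496.

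Of 16 Wnt receptors and co-receptors in the table, 12 had enough UMIs in ENR+CD and ENR, of which 4 were called higher and 1 lower (10.8% and 9.35% of all genes). In ENR+CV 11 had enough, of which 3 were higher and 0 lower (15.9% and 5.80%). Fzd3, Ptk7 and Lgr4 (3) were higher in both (4.07% of all genes), and Fzd6 in ENR+CD alone (4.90% of all genes). Lgr4, a receptor for R-spondins, stood at 78.5, 214 and 169 CPM, a ratio of 2.72 (2.42 to 3.06) in ENR+CD and 2.15 (1.88 to 2.46) in ENR+CV. Fzd5, a Frizzled receptor, was lower in ENR+CD at 48.3, 14.1 and 31.3 CPM. Ryk and Lrp5, co-receptors with many UMIs, were called in neither medium, at 25.1, 30.2 and 42.8 CPM for Ryk and 24.9, 17.4 and 33.3 CPM for Lrp5. With ratios centred on the median gene, 0 receptors were called in both.

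In the destruction complex and its regulators, Csnk1e and Dvl3 were higher in both media, and Gsk3b, Dvl2 and Tnks in ENR+CV alone, of 18 with enough UMIs and 19 in the table. Of all genes, 4.07% were higher in both and 10% in ENR+CV alone. Gsk3b, the target of CHIR99021, stood at 74.2, 105 and 178 CPM, a ratio of 1.41 (1.23 to 1.62) and 2.40 (2.10 to 2.74). Ctnnb1, which encodes beta-catenin, stood at 229, 291 and 207 CPM and was called in neither medium. Csnk1a1, a kinase that primes beta-catenin, and the deubiquitinase gene Usp34 were called in neither, at ratios from 1.01 to 1.14. Frat2, which encodes a GSK3-binding protein, was lower in both, at 15.7, 5.95 and 5.44 CPM. With ratios centred on the median gene, 0 of this list were called in both. Of 17 TCF partners and nuclear cofactors, 0 were higher in both, Tle1 and Tle2, which encode Groucho corepressors, in ENR+CD alone, and Bcl9 and Tle3 in ENR+CV alone. Sp8 had 2, 22 and 2 UMIs and was called higher in ENR+CD, with under 20 UMIs in the pair of ENR+CV and ENR. Aes, Ctbp1 and Ctbp2, corepressors with many UMIs, were called in neither, at ratios to ENR of 1.12 and 1.99 for Aes, 0.855 and 1.25 for Ctbp1 and 1.01 and 1.34 for Ctbp2.

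Of 10 further secreted Wnt antagonists in the table, a list that does not hold Dkk3, only Sfrp5 had 20 UMIs, at 19.6, 6.61 and 27.9 CPM. It was lower in ENR+CD by a ratio of 0.337 (0.216 to 0.511). Draxin, Trabd2b and Sfrp1, next in UMIs, had at most 4 UMIs in any library. Sfrp5 thus did not share the ENR+CD-high values of Notum, Wif1 and Dkk3, and the rest of this list was too low to compare.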

How the data were processed

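Seq-Well libraries of ENR, ENR+CD and ENR+CV organoids, 1 each, were analysed. The authors aligned reads to the mouse genome and merged reads that share a barcode and UMI. The submitters' processing notes name bcl2fastq, STAR, Seurat and mm10. Not given in the sources used here were tool versions, annotation and strand. The deposited tables hold raw UMI counts per gene and cell, and for each library also read counts. The merged table was used. Other per-sample columns not used numbered 0.

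Cells of at least 1000 and under 8000 UMIs and at least 400 genes were kept. UMIs were summed per library and scaled to CPM, with exact Poisson 95% intervals, and ratios had exact binomial intervals. Shares of cells had Clopper-Pearson intervals after thinning to 1000 UMIs (seed 11). With 1 library per condition no test was run. The call rule was tested on simulated counts. Clusters came from Seurat 5.3.0 in R 4.3.3 (12 principal components, 30 neighbours, resolution 1.35) on 1656 of 1667 variable genes, with the Wnt genes left out. No doublet caller was run and doublets were not removed. Gene positions are from GENCODE vM21. Python 3.11.15, SciPy 1.17.1 and matplotlib 3.10.9 were used.

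The 10 genes, the wider Wnt lists and the markers were chosen with earlier results of these data known. The genes named are all members, from each wider list those higher in both media and the 4 with most UMIs, the 3 genes most like each member of 200 or more UMIs, and markers set beside a member. Others were named after their values were seen, namely wider-list genes called lower or in 1 medium alone, and Dkk3, Apcdd1 and Sp8. Alternatives covered the cells, scaling, thresholds, thinning, library labels and clustering.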

Additional observations from a re-analysis of the deposited data

Results flagged for a closer look

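Barcodes with under 1000 UMIs lie outside the kept cells, and in them several members stood above the same barcodes of ENR with separate 95% intervals. No fold was required here, unlike in the call above, and the same count over all genes in these barcodes was not made. In ENR+CD these were Axin2 (166 CPM), Notum (66.6 CPM), Nkd1 (127 CPM), Rnf43 (156 CPM), Znrf3 (32.1 CPM), Sp5 (71.0 CPM), Wif1 (22.3 CPM) and Lef1 (27.7 CPM). In ENR+CV they were Axin2 (276 CPM), Nkd1 (13.2 CPM), Rnf43 (155 CPM), Znrf3 (29.1 CPM), Sp5 (62.7 CPM) and Lef1 (21.2 CPM). The same ENR barcodes had 112 CPM of Axin2, 0.913 CPM of Notum, 2.74 CPM of Nkd1 and 0 UMIs of Wif1 and Lef1. Nkd1 in ENR+CV was lower in these barcodes than the 32.6 CPM of the kept cells, with separate intervals (7.41 to 21.8 against 26.4 to 39.8). Such barcodes numbered 3345, 5493 and 3907 for ENR, ENR+CD and ENR+CV, and whether they are small cells or free RNA was not tested.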

How the results depend on the processing

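No paired analysis was possible because each condition is 1 library. The members higher in both CHIR99021 media were Nkd1, Rnf43, Sp5 and Lef1 in 6 of 10 alternatives. A 1.5-fold threshold added Znrf3, a 3-fold threshold took out Rnf43 and a minimum of 100 UMIs Lef1, and the number was 2 (Rnf43 and Sp5) in cells under 2000 UMIs, where the Nkd1 ratio of ENR+CV to ENR was 21.4 on fewer UMIs. Members higher in ENR+CV than ENR numbered 3 in those cells and 3 at a 3-fold threshold. The median log2 ratio of ENR+CD over ENR+CV, 0.24 as reported, was 0.64 over UMIs outside Paneth and mitochondrial genes and 0.60 with ratios centred on the median gene. With the labels of ENR+CD and ENR+CV exchanged, the median of ENR+CD over ENR was 1.33 and that of ENR+CD over ENR+CV -0.24, 0 members were higher in ENR+CD than in ENR+CV, and the ratios of Notum, Nkd1 and Wif1 between them were 0.0329, 0.249 and 0.0168. The highest cluster of 8 members was one of ENR+CD, and of 5 at resolution 0.8, where no EEC-like ENR+CD cluster was found. Over UMIs outside Paneth genes, 0 members were higher in the cells of lowest Paneth share, in place of 5. Of the wider lists, receptors higher in both media numbered 0 under both scalings, and destruction complex genes 1 outside Paneth and mitochondrial genes and 0 when centred, alternatives chosen after seeing the data. The cause of these differences was not tested. Depth limits Notum, Wif1 and Lef1 in ENR, with 1 to 3 UMIs each.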
